A study of Mus musculus with 9 samples.

Results

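The spermatogonial stem and differentiation genes comprised 10 genes. Zbtb16, Gfra1, Nanos2, Lin28a, Sall4 and Uchl1 mark undifferentiated spermatogonia. Kit, Sohlh1, Sohlh2 and Dmrt1 are grouped here as differentiation genes. All 10 were chosen by gene symbol, with earlier results of these data known, and each had its row among the 38685 gene rows of the table. RNA of whole testis, freed of the tunica albuginea, was sequenced from C57BL/6 males of 3 genotypes with 3 biological replicates each, namely Prm2+/+, Prm2+/- and Prm2-/-. The Prm2-deficient line was made by CRISPR/Cas9 gene editing in oocytes. Prm2 encodes protamine 2, which packs sperm DNA in late spermatids. Prm2+/- males are fertile and Prm2-/- males are infertile. The age of the males and any agent given to them were not stated in the sources used here. The comparisons between the genotypes ask here whether the earliest germ cell program differs in a testis that lacks a protein made at the end of spermatogenesis.

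Spermatogonia are the germ cells on the basement membrane of the seminiferous tubule. A small pool of stem cells renews itself under glial cell line-derived neurotrophic factor (GDNF), which Sertoli cells release and which signals through RET and its co-receptor GFRA1. Retinoic acid then drives the undifferentiated cells towards KIT-positive spermatogonia, which divide and enter meiosis. Because spermatogonia are a minority of testis cells, their transcripts are diluted by those of spermatocytes and spermatids, and in RNA of a whole tissue fewer cells of a type and less RNA per cell cannot be told apart.

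SOHLH1 and SOHLH2 are basic helix-loop-helix factors, a family that binds the E-box CANNTG, and Kit is known as one of their targets. The promoters of Kit, Sohlh1 and Sohlh2 are shown for this reason, from 250 bases before to 50 after the start, 5′ to 3′ (RefSeq, GRCm38.p6), with each CANNTG in capitals. The motif equals its own reverse complement at its fixed letters, so that both strands are covered. The Kit window (chr5:75574737-75575036, plus strand) held 1 match, and a second RefSeq start lay 4 bases downstream. The Sohlh1 window (chr2:25847199-25847498, minus strand) held 5 matches, 3 of them CACGTG. The Sohlh2 window (chr3:55181794-55182093, plus strand) held 1 match.
Kit: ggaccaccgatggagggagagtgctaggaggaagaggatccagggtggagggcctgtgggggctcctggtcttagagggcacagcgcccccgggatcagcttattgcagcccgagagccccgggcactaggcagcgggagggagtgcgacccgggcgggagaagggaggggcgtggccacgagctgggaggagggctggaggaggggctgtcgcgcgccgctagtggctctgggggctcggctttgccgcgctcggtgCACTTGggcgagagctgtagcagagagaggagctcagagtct
Sohlh1: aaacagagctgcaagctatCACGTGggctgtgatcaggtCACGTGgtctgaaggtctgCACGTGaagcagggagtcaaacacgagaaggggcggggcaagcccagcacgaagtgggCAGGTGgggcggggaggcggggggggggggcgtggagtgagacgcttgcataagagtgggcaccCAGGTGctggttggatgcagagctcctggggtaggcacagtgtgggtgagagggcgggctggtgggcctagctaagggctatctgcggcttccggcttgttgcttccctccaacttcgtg
Sohlh2: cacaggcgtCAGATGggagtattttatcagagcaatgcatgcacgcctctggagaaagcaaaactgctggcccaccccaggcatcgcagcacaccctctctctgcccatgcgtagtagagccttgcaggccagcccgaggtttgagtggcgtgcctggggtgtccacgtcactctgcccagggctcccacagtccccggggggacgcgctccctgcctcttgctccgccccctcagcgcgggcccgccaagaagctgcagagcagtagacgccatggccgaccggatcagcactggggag
Of 32851 promoters of this length, 72.3% held at least 1 CANNTG, with a median of 1, so a single match was common. At least 5 matches were found in 689 of them, and at least 3 CACGTG in 29 promoters. Promoter windows were matched for 7 of the 10 genes. Gfra1 held 3 CANNTG, and Nanos2, Lin28a and Uchl1 held 0. A match describes these letters and does not show binding.

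The libraries held 3629929 to 4490411 counts each. The values below are normalized counts, meaning gene counts divided by 1 size factor per library, so that 3 counts equal 2.65 to 3.31 normalized counts. The third Prm2+/+ library stood apart from the rest. It was the lowest or the highest of the 9 libraries for 48.6% of the 14893 tested genes, against 15.0% to 24.3% for the other libraries, and it had the fewest genes above 0 (19028, against up to 20526). Results are therefore also given without it. A value of 0 need not mean that no transcript was present, since 777 tested genes were listed at 0 in at least 1 library while another library held 20 or more counts. Prm2 itself stood at 29757, 29716 and 39665 normalized counts in the Prm2+/+ libraries, at 30174, 31011 and 34487 in Prm2+/- and at 34660, 36004 and 42766 in Prm2-/-. The library preparation reads 3′ ends, which may lie outside the edited part, so that this level does not check the genotype labels.

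None of the 8 genes that were tested differed between genotypes by the test used. A gene was called at an adjusted p under 0.05 over all tested genes (limma, Benjamini-Hochberg) together with a change of more than 0.5 up or down in log2 units (LFC, log2 fold change), on the scale log2(normalized count + 1). The added 1 alters the change of genes with low values. Of the 10 genes, 8 passed the filter on low counts, and Sall4 and Nanos2 did not. In Prm2-/- against Prm2+/+, 0 of the 8 were called, where 0.181% of all tested genes were called. In Prm2+/- against Prm2+/+ it was also 0 of 8, against 0.0806% of all tested genes, and in Prm2-/- against Prm2+/- 0 of 8, against 0.175%. At such background rates, 0 among 8 genes was a share near the background. None of the 8 had an unadjusted p under 0.05 in any of the 3 comparisons in limma, nor did edgeR or DESeq2 call any of them. The same count of 0 was found without the third Prm2+/+ library.

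**Figure D1:**
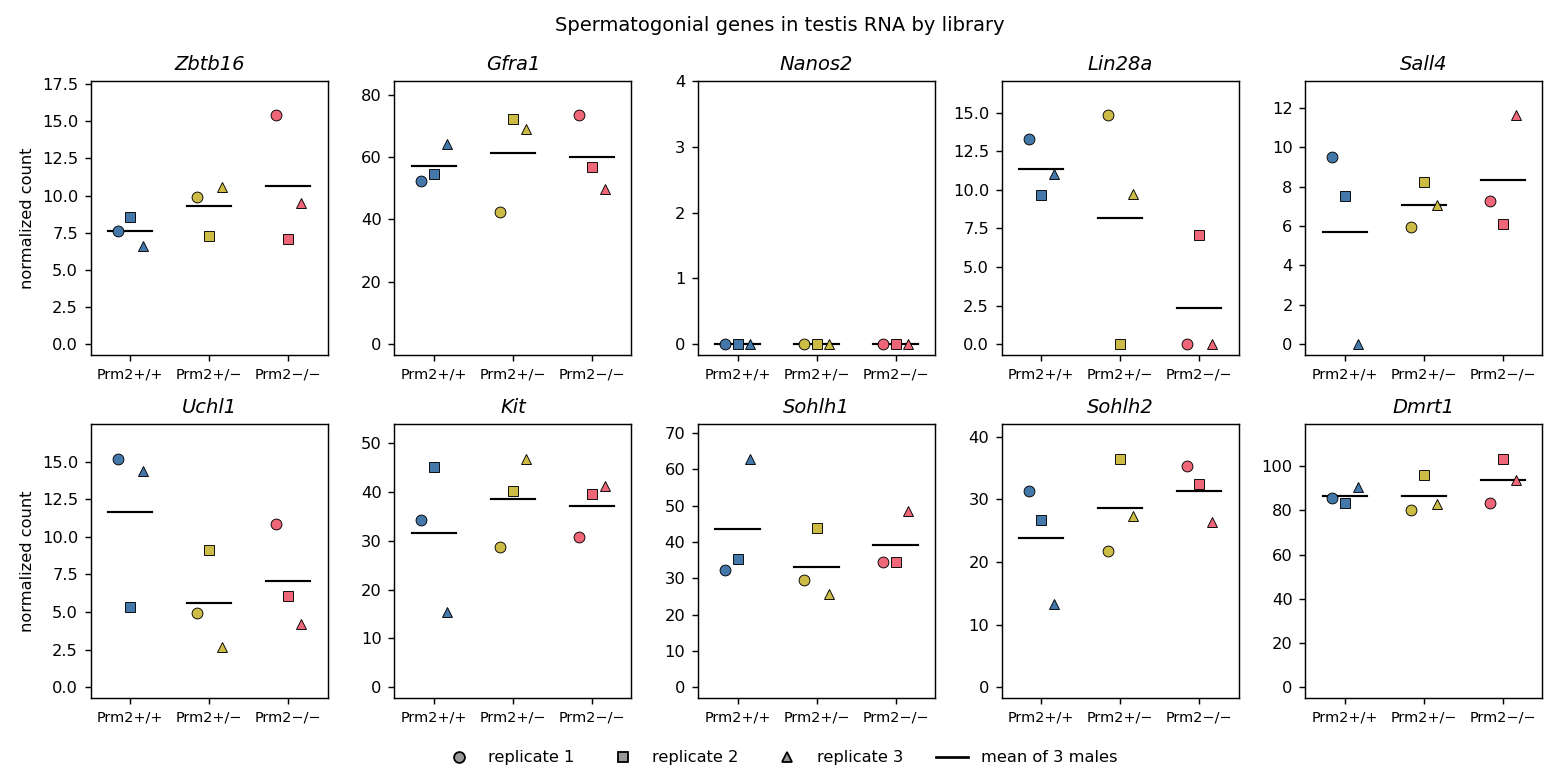
Normalized counts (y axis, linear, a separate scale for each gene) of the 10 spermatogonial genes in the 3 genotypes (x axis). Each point is 1 male, its shape gives the replicate number and the line is the mean of 3. Ranges of Prm2-/- and Prm2+/+ overlap in each panel but that of Lin28a, and Nanos2 is at 0 in all 9 libraries.

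Among the genes of undifferentiated spermatogonia, Gfra1 (chromosome 19, 58235604 to 58455909, minus strand, GRCm38), the co-receptor for GDNF, was found at 52.3, 54.7 and 64.1 normalized counts in the Prm2+/+ libraries. In Prm2+/- it reached 42.5, 72.2 and 68.9, and in Prm2-/- 73.4, 56.8 and 49.6. High and low values occurred in Prm2+/- and in Prm2-/-, and all 3 ranges overlapped. The means were 57.0 ± 6.25, 61.2 ± 16.3 and 59.9 ± 12.2 (SD, n = 3 each). The LFC of Prm2-/- against Prm2+/+ was 0.06 with an SE of 0.24 (limma, adjusted p = 0.965), and its 95% interval of -0.49 to 0.61 spans ratios of 0.711 to 1.52.

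Zbtb16 (chromosome 9, 48654297 to 48836222, minus strand) encodes PLZF, a zinc-finger repressor needed to maintain the stem cell pool. It measured 7.60, 8.57 and 6.63 normalized counts in Prm2+/+, 9.89, 7.31 and 10.6 for Prm2+/-, and 15.4, 7.10 and 9.50 in Prm2-/-. The highest value came from the first Prm2-/- library, and the other 8 libraries lay at or below 10.6. The LFC of Prm2-/- against Prm2+/+ was 0.38 with an SE of 0.35 (limma, adjusted p = 0.782). The 95% interval ran from -0.42 to 1.19, and the recovered counts over all 9 libraries came to 85. Without the first Prm2-/- library the LFC was 0.11 (limma, adjusted p = 0.962).

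Uchl1 (chromosome 5, 66676091 to 66687234, plus strand) encodes a deubiquitinating enzyme, also called PGP9.5, that is used as a stain for spermatogonia. Its values were 15.2, 5.36 and 14.4 normalized counts in Prm2+/+, 4.94, 9.13 and 2.65 for Prm2+/-, and 10.9, 6.09 and 4.22 in Prm2-/-. The first and the third Prm2+/+ libraries were the highest of all 9, and the second lay among the other genotypes, so that the ranges overlapped. The LFC was -0.62 with an SE of 0.57 in Prm2-/- against Prm2+/+ (limma, adjusted p = 0.784). It was -1.05 without the second Prm2+/+ library and -0.35 without the third Prm2-/- library. In Prm2+/- against Prm2+/+ the LFC was -0.95 with the same SE (limma, adjusted p = 0.842).

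Lin28a (chromosome 4, 134003330 to 134018841, minus strand) encodes an RNA-binding protein that blocks the maturation of let-7 microRNAs. It was the one member whose ranges in Prm2-/- and Prm2+/+ did not overlap, where 14.0% of all tested genes showed no overlap. The Prm2+/+ libraries held 13.3, 9.64 and 11.05 normalized counts and the Prm2+/- libraries 14.8, 0 and 9.72. In Prm2-/-, the second library held 7.10 and the first and the third were listed at 0. The recovered counts summed to 33, 26 and 7 in the 3 genotypes. Against Prm2+/+, Prm2-/- had an LFC of -2.61 with an SE of 1.21 and an interval of -5.39 to 0.18 (limma, unadjusted p = 0.063, adjusted p = 0.705). Because the size of this LFC depends on how values of 0 are treated, it is given with that limit. With a pseudocount of 5 in place of 1 it was -1.28, and edgeR and DESeq2 gave -2.23 and -2.26. Lin28a was listed at 0 in 3 libraries and at 7 or more counts in each of the other 6, a pattern shared by 94 tested genes in all.

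Sall4 (chromosome 2, 168748332 to 168767943, minus strand), a zinc-finger transcription factor of undifferentiated spermatogonia, was below the filter. Its values were 9.50, 7.501 and 0 normalized counts in Prm2+/+, 5.93, 8.22 and 7.07 for Prm2+/-, and 7.24, 6.09 and 11.6 in Prm2-/-. The ranges overlapped, and the 1 value of 0 belonged to the third Prm2+/+ library. Nanos2 (chromosome 7, 18987400 to 18988962, plus strand), an RNA-binding protein of the stem cells themselves, was listed at 0 in all 9 libraries. Its defining place among stem cell markers could thus not be examined here. For Gfra1, Nanos2, Lin28a, Sall4 and Uchl1, a gene on the opposite strand overlaps the locus, and each of these 5 partners was listed at 0 in every library.

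The differentiation genes were led by Kit (chromosome 5, 75574916 to 75656722, plus strand), the receptor tyrosine kinase for KIT ligand and the classical mark of differentiating spermatogonia. It was found at 34.2, 45.0 and 15.5 normalized counts in Prm2+/+, at 28.7, 40.2 and 46.8 for Prm2+/-, and at 30.8, 39.6 and 41.2 in Prm2-/-. The third Prm2+/+ library held the lowest value, and the other 8 libraries lay between 28.7 and 46.8. Means were 31.6 ± 14.9, 38.6 ± 9.19 and 37.2 ± 5.59 (SD, n = 3 each). The LFC of Prm2-/- against Prm2+/+ was 0.34 with an SE of 0.38 (limma, adjusted p = 0.809). Without the third Prm2+/+ library it was -0.09 (limma, adjusted p = 0.952). RNA of whole testis does not show which cells the Kit transcripts came from.

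Sohlh2 (chromosome 3, 55182028 to 55209957, plus strand) ran at 31.4, 26.8 and 13.3 normalized counts in Prm2+/+, 21.8, 36.5 and 27.4 for Prm2+/-, and 35.3, 32.5 and 26.4 in Prm2-/-. As for Kit, the third Prm2+/+ library was the lowest of all. The LFC of Prm2-/- against Prm2+/+, 0.46 with an SE of 0.34 (limma, adjusted p = 0.754), became 0.10 without that library (limma, adjusted p = 0.942).

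Sohlh1 (chromosome 2, 25842995 to 25847248, minus strand), the partner of SOHLH2, showed the opposite position of the same library. Its values were 32.3, 35.4 and 63.0 normalized counts in Prm2+/+, 29.7, 43.8 and 25.6 for Prm2+/-, and 34.4, 34.5 and 48.6 in Prm2-/-. The highest of the 9 was again the third Prm2+/+ library. For Prm2-/- against Prm2+/+, Sohlh1 had an LFC of -0.10 with an SE of 0.31 (limma, adjusted p = 0.947) that turned to 0.19 without it (limma, adjusted p = 0.882). Of the 8 tested members, the third Prm2+/+ library was the lowest or the highest for 4, namely Zbtb16, Kit, Sohlh1 and Sohlh2, a share close to the 48.6% over all tested genes.

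Dmrt1 (chromosome 19, 25505618 to 25604329, plus strand) encodes a DM-domain transcription factor that holds spermatogonia in the mitotic program and is also made by Sertoli cells. It had the smallest coefficient of variation of the 9 members above 0. The values were 85.5, 83.6 and 90.6 normalized counts in Prm2+/+, 80.1, 95.9 and 83.1 for Prm2+/-, and 83.3, 104 and 94.0 in Prm2-/-. The means of 86.6 ± 3.63, 86.4 ± 8.41 and 93.6 ± 10.1 (SD, n = 3 each) lay within the spread of the replicates. The LFC of Prm2-/- against Prm2+/+ was 0.11 with an SE of 0.13 (limma, adjusted p = 0.827). Its 95% interval of -0.19 to 0.40, or ratios of 0.876 to 1.32, was the narrowest among the members and lay within the 0.5 limit on either side.

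**Figure D2:**
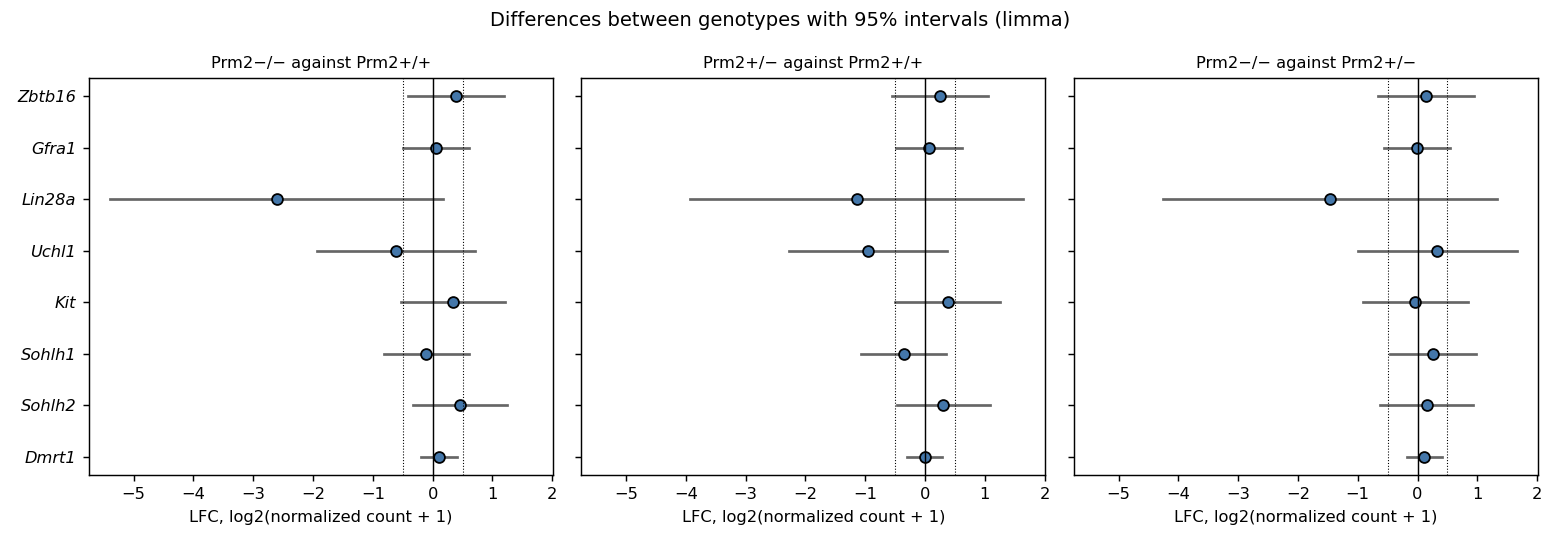
LFC (x axis, points) with 95% intervals (lines) of the 8 tested members (y axis) in the 3 comparisons, from limma with all 9 libraries. The solid line is 0 and the dotted lines are LFCs of 0.5 in either direction; each interval includes 0, and that of Dmrt1 is the narrowest.

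The precision differed widely between the members. In each comparison the half-width of the 95% interval was 0.30 for Dmrt1 and 2.79 for Lin28a. The variance of the recovered counts within genotypes, divided by their mean, was 0.841 for Dmrt1 and 1.18 for Zbtb16. It was 4.07 for Gfra1, 3.80 for Lin28a, 3.39 for Kit, 2.89 for Sohlh1, 2.81 for Sohlh2, 2.54 for Uchl1 and 1.62 for Sall4. These ratios rest on 3 males per genotype and on counts not scaled for depth. A count need not be 1 read, so a ratio of 1 need not be the value of pure counting. Whether the ratios exceed counting error was not tested. For the 9 members above 0, over all libraries, the coefficient of variation ran from 8.66% for Dmrt1 to 80.8% for Lin28a.

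In Prm2-/- against Prm2+/+, 5 of the 8 tested members had an LFC above 0 and 3 below, with a median of 0.08, beside a median of 0.02 and 52.9% above 0 over all tested genes. The genes of undifferentiated cells were split into 2 above 0 (Zbtb16, Gfra1) and 2 below (Lin28a, Uchl1). Of the differentiation genes, Kit, Sohlh2 and Dmrt1 lay above 0 and Sohlh1 below. Prm2+/- against Prm2+/+ gave 4 above and 4 below with a median of 0.03, beside 0.01 over all tested genes. The LFCs there ran from -1.14 for Lin28a to 0.38 for Kit, and the smallest adjusted p was 0.842 (limma). In Prm2-/- against Prm2+/-, 5 lay above and 3 below with a median of 0.13, beside -0.01 over all tested genes, and the LFCs ran from -1.46 for Lin28a to 0.33 for Uchl1 (limma, smallest adjusted p = 0.986). These comparisons share libraries and are not independent of each other. No LFC of a member passed the test, so these signs are given as values only.

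**Figure D3:**
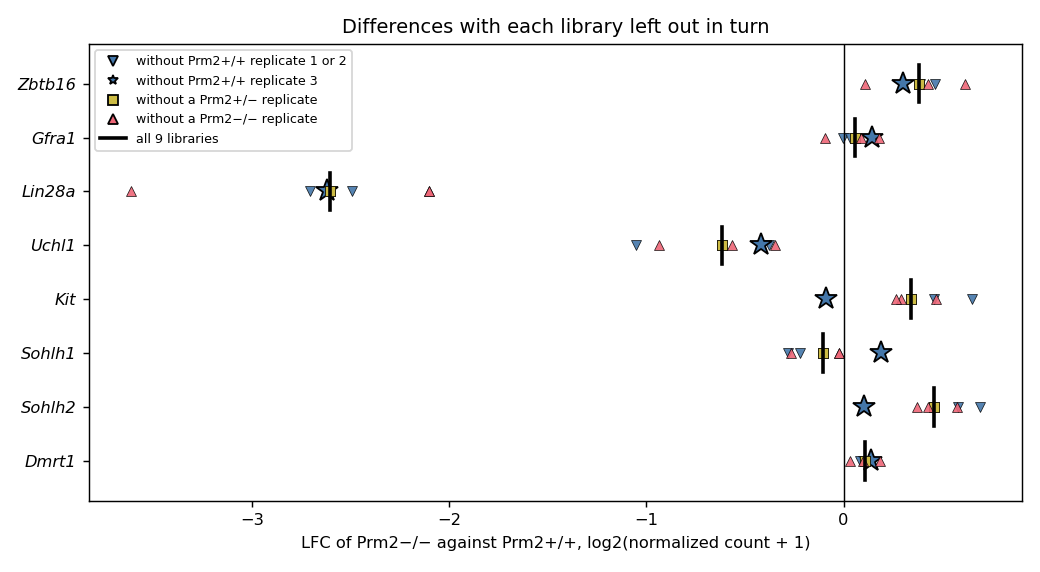
LFC of Prm2-/- against Prm2+/+ (x axis) of the 8 tested members (y axis) with each library left out in turn. The bar is the value with all 9 libraries and the star that without the third Prm2+/+ library, which moved Kit from 0.34 to -0.09, Sohlh1 from -0.10 to 0.19 and Sohlh2 from 0.46 to 0.10.

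Summed over the 6 genes of undifferentiated cells, the libraries held 85.7 to 97.9 normalized counts in Prm2+/+, 78.1 to 99.0 in Prm2+/- and 74.97 to 107 in Prm2-/-. The 4 differentiation genes summed to 182 to 191 in Prm2+/+, 160 to 216 in Prm2+/- and 184 to 210.1 in Prm2-/-. Both sums overlapped between all genotypes. The sum over all 10 was 276 to 281 in Prm2+/+ and 285 to 293 in Prm2-/-, which did not overlap, while Prm2+/- spanned both with 238 to 313. Of single tested genes, 14.0% showed no overlap between Prm2-/- and Prm2+/+. Gfra1 and Dmrt1 carried much of these sums. Because Dmrt1 also acts in the mitotic program and is made by Sertoli cells, the sum of the 4 does not measure differentiation alone.

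A wider set of 39 other spermatogonial genes gave 38 rows, of which 22 passed the filter. None was called in any of the 3 comparisons by limma or edgeR, and DESeq2 called 1, described below. A place in this set does not show which cells of the testis the transcripts came from. Over all 14893 tested genes, limma called 27, 12 and 26, edgeR 24, 10 and 23, and DESeq2 on 9 libraries 131, 59 and 110. The order is Prm2-/- against Prm2+/+, Prm2+/- against Prm2+/+ and Prm2-/- against Prm2+/-. In Prm2-/- against Prm2+/+, the 12 tested genes listed for undifferentiated cells had 7 LFCs above 0 and 5 below, with a median of 0.03. The 10 listed for differentiating cells had 4 above and 6 below, with a median of -0.06. The corresponding medians were -0.26 and 0.02 in Prm2+/- against Prm2+/+, and 0.08 and -0.10 in Prm2-/- against Prm2+/-. Neurog3 and Pdx1 were listed at 0 in all libraries. Ret, the signalling partner of GFRA1, was listed above 0 in the third Prm2-/- library alone, at 7.39 normalized counts (Ret, Neurog3 and Pdx1 were named after their values were seen).

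**Figure D4:**
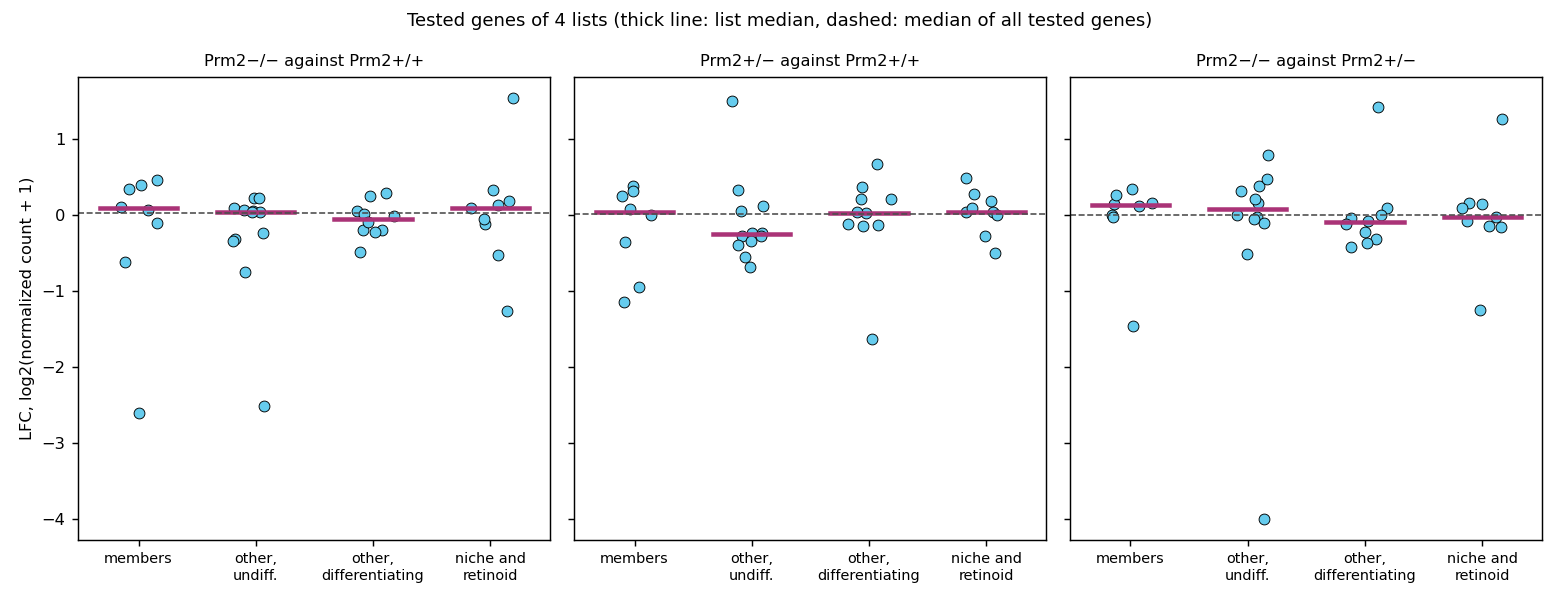
LFC (y axis) of each tested gene in 4 lists (x axis) in the 3 comparisons. The lists are the 8 tested members, 12 other genes listed for undifferentiated and 10 for differentiating spermatogonia, and 9 niche and retinoid genes. Thick lines are list medians and the dashed line the median of all tested genes; the list medians in Prm2-/- against Prm2+/+ lie between -0.06 and 0.09.

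The smallest p of these genes belonged to Egr4, a zinc-finger transcription factor of the early growth response family. It was found at 12.4, 12.9 and 0 normalized counts in Prm2+/+, at 19.8, 13.7 and 12.4 for Prm2+/-, and was listed at 0 in all 3 Prm2-/- libraries. Prm2-/- thus did not overlap with Prm2+/-, as for 14.7% of all tested genes, and shared the value of 0 with the third Prm2+/+ library. In limma, Egr4 did not pass in Prm2-/- against Prm2+/+ (adjusted p = 0.650) or against Prm2+/- (adjusted p = 0.612). Without the third Prm2+/+ library it passed in both (limma, adjusted p = 0.0315 and 0.0132), and DESeq2 with all libraries called it against Prm2+/- (adjusted p = 0.0413) but not against Prm2+/+ (adjusted p = 0.137). No fold is given against libraries listed at 0, and the largest recovered count of Egr4 in any library was 20.

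Ngfr, a neurotrophin receptor, had means of 93.1 ± 19.4, 84.4 ± 6.68 and 65.9 ± 15.0 normalized counts in Prm2+/+, Prm2+/- and Prm2-/- (SD, n = 3 each). Its LFC of Prm2-/- against Prm2+/+ was -0.50 with an SE of 0.22 (limma, adjusted p = 0.696). Pou3f1, a POU-domain factor that responds to GDNF, averaged 14.1 ± 1.19 in Prm2+/+ and 8.40 ± 3.79 in Prm2-/- with no overlap, and an LFC of -0.76 (limma, adjusted p = 0.700). No overlap in this comparison was seen for 14.0% of all tested genes. In Prm2+/- against Prm2+/+, the smallest p values were those of Foxo1, a factor of stem cell maintenance, the surface protein gene Tspan8 and the cyclin gene Ccnd2. Their LFCs were -0.40, -0.56 and 0.36, each with an adjusted p of 0.842 (limma). Ccnd2 and Ngfr also followed Egr4 in Prm2-/- against Prm2+/-, with LFCs of -0.31 and -0.38 and adjusted p-values of 0.977 and 0.963 (limma).

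Bmi1, a Polycomb gene also reported in undifferentiated spermatogonia and named here after its values were seen, differed widely between libraries of the same genotype. It was listed at 25.7, 11.9 and 38.0 normalized counts in the first Prm2+/+, the second Prm2+/- and the third Prm2-/- library, and at 320.3 to 638 in the other 6. Each genotype thus held 1 low library. The split did not follow the genotypes.

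Of 12 niche ligands and retinoid genes, 9 were tested and 0 were called by limma, edgeR or DESeq2, beside the counts over all tested genes given above. Fgf2, a growth factor that sustains spermatogonial stem cells in culture, was found at 52.3, 46.1 and 54.1 normalized counts in Prm2+/+, at 49.4, 52.1 and 49.5 for Prm2+/-, and at 38.0, 16.2 and 13.7 in Prm2-/-. Each Prm2-/- library lay below all 6 others, where 14.0% of all tested genes showed no overlap with Prm2+/+ and 14.7% with Prm2+/-. The LFC was -1.27 against Prm2+/+ and -1.26 against Prm2+/-, each with an SE of 0.34, and neither passed over all tested genes (limma, adjusted p = 0.466 and 0.691). Without the first Prm2-/- library, the highest of its group, Fgf2 passed in both (LFC of -1.70 and -1.69, limma, adjusted p = 0.0188 and 0.0174). This was the 1 alternative of 20 in which it passed. Without the second or the third Prm2-/- library the LFC against Prm2+/+ was -1.11 or -0.995 (limma, adjusted p = 0.809 and 0.802).

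Kitl, the ligand of KIT made by Sertoli cells, averaged 45.5 ± 5.91 normalized counts in Prm2+/+, 63.8 ± 6.00 for Prm2+/- and 57.0 ± 4.24 in Prm2-/- (SD, n = 3 each). The ranges of Prm2+/+ overlapped with neither of the others, as for 9.44% of all tested genes against Prm2+/- and 14.0% against Prm2-/-. The LFC was 0.48 in Prm2+/- and 0.33 in Prm2-/-, each against Prm2+/+ with an SE of 0.15, and neither passed (limma, adjusted p = 0.842 and 0.700). Wnt5a, a ligand that supports stem cells, had LFCs of -0.53 in Prm2-/- and -0.50 in Prm2+/- against Prm2+/+. Cyp26b1, which degrades retinoic acid, had an LFC of -0.28 in Prm2+/- against Prm2+/+, and Csf1, a cytokine of the stem cell niche, one of 1.26 with an SE of 1.25 in Prm2-/- against Prm2+/-. Their adjusted p-values ran from 0.756 to 0.989 (limma), and Fgf8, named after its values were seen, was listed at 0 in all libraries.

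Markers of other cells in the testis gave no call in any comparison. Lists of spermatocytes, round spermatids, elongating spermatids, Sertoli cells, Leydig cells, peritubular cells, macrophages, endothelium, blood, epididymis and germ cells in general all had 0 called genes in limma. The share called over all tested genes was 0.0806% to 0.181%. As a check of the tissue label, the genes of elongating spermatids summed to 212011 to 235681 normalized counts per library. The 6 epididymal genes summed to 18.3 to 39.0. Of these, Lcn5, Lcn8 and Adam28 were at 0 in all libraries, and Rnase10 was above 0 in all 9, at 17.2 to 36.4. Crisp1 and Defb20 were above 0 in 1 and 3 libraries, at up to 3.65 and 12.4. Sertoli cell genes, which matter for Dmrt1, summed to 813 to 1023 in Prm2+/+, 853 to 947 in Prm2+/- and 914 to 962 in Prm2-/-. Amh and Fshr were at 0 in all libraries, and Wt1 ran from 18.8 to 148. Gata4 held 0, 25.7 and 0 in Prm2+/+, 33.6, 0 and 0 in Prm2+/-, and 48.9, 38.6 and 28.5 in Prm2-/-. In Prm2-/-, Gata4 did not pass against Prm2+/+ or Prm2+/- (limma, adjusted p = 0.700 and 0.945). Lcn5, Lcn8, Adam28, Rnase10, Crisp1, Defb20, Amh, Fshr, Wt1 and Gata4 were named after their values were seen. Among the germ cell genes, Mael, a piRNA pathway gene named after its values were seen, was listed at 168 to 230.2 normalized counts in 4 libraries (the first and second Prm2+/- and the first and the third Prm2-/-) and at 4130 or more in the other 5. The part of these levels in the values of the members was not tested.

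For the 5 members with a mean of at least 20 counts, the genes whose levels followed them most closely over the 9 libraries were named by Pearson's r on log2(normalized count + 1). These are the highest of the tested genes outside the members and serve as a description. Kit went with Snrpf (r = 0.992), a spliceosome gene, and Snhg6 (r = 0.977), a small nucleolar RNA host gene. Sohlh2 went with Hus1b (r = 0.979) and Zfp938 (r = 0.975), and Sohlh1 with Gm45441 (r = 0.969) and Frat1 (r = 0.964). Dmrt1 went with Ska1 (r = 0.920), a kinetochore gene, and Gja1 (r = 0.915), which encodes connexin 43, and Gfra1 with Cyb5d2 (r = 0.894) and Vamp2 (r = 0.875). Without the 2 libraries farthest from the median of the member, r was 0.960 and 0.830 for the 2 genes that followed Kit and 0.795 to 0.932 for the other 8. Snrpf ran from 7.73 to 344 normalized counts, Snhg6 from 0 to 84.8 and Hus1b from 0 to 11.2, and low values in some libraries can weigh on such r. Genes of 1 library share its depth and scaling, so these values also hold what moves many genes at once.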

How the data were processed

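Testis RNA of 9 males was prepared as a 3′ (QuantSeq) library. Per the labels and methods, the authors trimmed reads (Trim Galore 0.4.5), aligned them to GRCm38 (HISAT2 2.1), assembled and counted genes (StringTie 1.3.3) and normalized the counts with DESeq2. The authors deposited 1 table of normalized counts per gene and library, a signal of whole counts divided by 1 size factor per library. Counts were recovered as whole numbers within 0.01 for 100% of values. The scale of the counts comes from StringTie coverage, so that a count need not be 1 read. All 9 columns matched 1 sample each. Gene positions came from GENCODE M21 by identifier (38520 rows, 99.6%).

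Genes were filtered with filterByExpr (minimum count 10), leaving 14893. limma 3.58.1 (lmFit, eBayes with trend) was fitted to log2(normalized count + 1) of all 9 libraries with genotype alone and Benjamini-Hochberg adjustment over all tested genes. Alternatives were edgeR 4.0.16 (quasi-likelihood) and DESeq2 1.42.0 on recovered counts, other scaling, pseudocounts of 0.5 and 5, filters, only the 6 libraries compared, the replicate number as a block, and each library left out in turn. The fits were tested on simulated data.

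The members and lists were chosen with earlier results of these data known. Named were the members, Prm2, the 3 genes of smallest p per comparison in each of the spermatogonial and niche lists, and for members with at least 20 counts the 2 genes of highest correlation. Any other gene, including list genes named for being at 0, was named after its values were seen. Meiosin, Izumo1 and Insl3 were not analysed here. Intervals of LFCs rest on the spread between males, and the floor of 3 counts covers counting error only.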

Additional observations from a re-analysis of the deposited data

How the results depend on the processing

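The count of called members was 0 in all 3 comparisons under each of the 20 alternatives run, including edgeR and DESeq2, and the smallest adjusted p of a member in any of them was 0.561. With at least 10 counts in every library, 5 members could be tested, and Sall4 was added with any count above 0. Over the 3 comparisons, 6 alternative LFCs of members had an unadjusted p under 0.05, and 4 of these were of Lin28a in Prm2-/- against Prm2+/+. Of 471 alternative LFCs of members, 448 kept their sign, and the 23 that did not came from leaving out 1 library, which affected 13 of 24 LFCs.

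With each library left out in turn, the LFC of Prm2-/- against Prm2+/+ ran from -0.095 to 0.18 for Gfra1, from -0.087 to 0.65 for Kit and from -0.28 to 0.19 for Sohlh1, and, with no change of sign, from 0.11 to 0.62 for Zbtb16, from -1.05 to -0.35 for Uchl1, from -3.61 to -2.10 for Lin28a, from 0.10 to 0.69 for Sohlh2 and from 0.032 to 0.19 for Dmrt1. In Prm2+/- against Prm2+/+ it ran from -0.067 to 0.31 for Gfra1, from -0.052 to 0.69 for Kit, from -1.90 to 0.090 for Lin28a, from -0.051 to 0.54 for Sohlh2, from -0.084 to 0.044 for Dmrt1 and from -0.11 to 0.10 for Prm2. In Prm2-/- against Prm2+/- it ran from -0.14 to 0.37 for Zbtb16, from -0.25 to 0.13 for Gfra1, from -0.23 to 0.12 for Kit, from -0.021 to 0.34 for Sohlh2 and from -0.030 to 0.71 for Uchl1. Leaving out the third Prm2+/+ library changed the signs of Kit and Sohlh1 in Prm2-/- against Prm2+/+. It also changed those of Kit, Sohlh2 and Dmrt1 in Prm2+/- against Prm2+/+, where Dmrt1 changed sign in 3 of the 9 fits without 1 library. The cause was not tested.

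The deviations of samples with the same replicate number correlated at -0.04 to 0.04, beside -0.04 to 0.05 for those with different numbers. With 3 libraries per genotype, these values cannot decide whether the numbers mark pairs. With the replicate block, 0 members were called in each comparison, and the counts over all tested genes went from 27, 12 and 26 (Prm2-/- against Prm2+/+, Prm2+/- against Prm2+/+, Prm2-/- against Prm2+/-) to 15, 6 and 14. In the same order, the counts were 53, 12 and 52 with only the 6 libraries compared, 131, 59 and 110 with DESeq2 on 9 libraries, 231, 59 and 158 with DESeq2 on 6, 39, 21 and 38 with any count above 0, and 9, 1 and 11 with at least 10 counts in every library. With 1 library left out they ran from 28 to 62, from 9 to 43 and from 23 to 49. Among the tested members, Lin28a and Uchl1 had the widest intervals.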
